A study of Mus musculus with 161 samples.

Results

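The sumoylation-deficient mutants of CTCF are 2 stable mouse embryonic stem cell (mESC) lines whose chromosome folding was measured by chromosome-conformation capture carbon copy (5C). They make up 4 of the 91 5C libraries in the series and were chosen by the label of the transgene line. In both lines, endogenous CTCF is fused to an auxin-inducible degron and was degraded with 500 µM auxin for 4 days, while 1 µg/ml doxycycline (dox) induced a mutated CTCF cDNA. The labels name the transgene of sumoylation deficient #1 (line EN253.2, n = 2 libraries) as K74R with Del_576-614, and that of sumoylation deficient #2 (line EN254.1, n = 2) as K74R with Del_615-736, where Del gives the residues deleted. Both therefore carry a lysine-to-arginine substitution and lack part of the C terminus. The reference was line EN133.10, in which the same system expresses full-length CTCF (n = 14 libraries, auxin and dox for 4 days). Set beside these were the line with Del_576-614 alone (EN142.1, n = 3), the line with Del_615-736 alone (EN143.7, n = 1), a mutant deficient in parylation (n = 2), all with auxin and dox for 4 days, and the full-length line with auxin for 4 days and no dox (n = 2), in which CTCF was depleted. Each line is 1 clone with the cDNA at the Tigre locus, fused to the fluorescent protein mRuby2, and the amount of transgenic protein is not among the data analysed here. Nothing in the labels says whether libraries of one line came from separate cultures, so p-values measure the spread between these libraries, which may be technical.

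CTCF binds DNA through a central array of zinc fingers and is flanked by N- and C-terminal domains. Bound CTCF stops cohesin, which extrudes chromatin loops, and thereby creates the boundaries of topologically associating domains (TADs), across which contacts are few. Sumoylation is the reversible attachment of the small protein SUMO to lysines, typically where a hydrophobic residue precedes the lysine and glutamate follows with 1 residue in between, and CTCF is known to carry SUMO in both flanking domains. The comparison asks whether CTCF labelled sumoylation deficient, with the substitution and a C-terminal deletion, insulates TADs as the full-length protein does. Sumoylation itself was not measured in the data analysed here.

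To show what the labels change, the mouse Ctcf coding sequence (GENCODE vM1, mm9; 736 codons before the stop) was read around each lysine codon that fits this consensus, of which there are 2. The substituted lysine is codon 74, shown with codons 67 to 84 and the lysine codon in capitals:
Ctcf codons 67 to 84: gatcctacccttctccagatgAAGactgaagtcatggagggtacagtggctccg
The other is codon 698, shown with codons 690 to 707 and the lysine codon in capitals:
Ctcf codons 690 to 707: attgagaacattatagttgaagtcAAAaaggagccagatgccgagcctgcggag
Codon 698 lies inside the deletion named for #2 and outside the deletion named for #1. By the labels, #1 thus keeps the C-terminal consensus lysine and lacks 39 residues, 7 of them lysines, whereas #2 lacks both consensus lysines and 122 residues, 5 of them lysines. The study's list of cell lines gives both lines the same substitution and deletions. Its plasmid list starts the deletion of #1 at the next residue, which would remove 1 residue fewer, and its methods text numbers the substituted residue higher by 1, where the mouse coding sequence has no lysine codon. Because substitution and deletion come together, their contributions to a difference from full-length cannot be told apart.

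The assay covered 4.6 Mb of chromosome X around Xist and Tsix, the noncoding RNA genes of the X-inactivation centre (mm9 chrX:98831148-103431147). Contacts were averaged in 20-kb bins, and insulation was scored for 193 bins. The insulation score takes the mean contact of the 100 kb upstream with the 100 kb downstream of a bin, divides it by the mean over all bins and reverses the sign of its log2, so higher scores stand for fewer contacts across the bin. Boundaries 1 to 6 are the TAD boundary bins of the study, in order along the chromosome. Boundary 1 lies within Nhsl2, boundary 2 between Rps4x and Cited1, boundary 3 within 4930519F16Rik, boundary 4 at the 5′ end of Xist, boundary 5 between Rlim and C77370, and boundary 6 at Cox7b and Atp7a. The count files of all 4 mutant libraries stop after 64 to 91 of up to 486 forward primers, and those of 5 other libraries, 2 of them full-length, also stop early. Over the 64 forward primers that all 26 files share, the mutant libraries held 927687 to 1137595 counts, and full-length libraries 572793 to 2580546 (median 1193116). The corrected contact matrices of all 26 libraries are complete and were used for every result below. All 4 mutant libraries fall in a run of 8 consecutive library numbers, together with 2 full-length and both parylation-deficient libraries.

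Averaged over the 6 boundaries, both mutants insulated within the range of full-length CTCF. The study reports that insulation scaled linearly with the expression of the full-length transgene. The scores and ratios below are not adjusted for expression, so they do not measure the function of each mutant protein at equal amounts. Mean insulation was 0.589 and 0.581 in the libraries of #1 and 0.650 and 0.658 in those of #2. The full-length libraries ranged from 0.542 to 0.708 with a median of 0.603, and the libraries without dox scored 0.373 and 0.384. All 4 mutant libraries therefore lay inside the full-length range and above both libraries without dox, with #1 in the lower part of that range (9 of 14 full-length libraries were higher than both) and #2 in the upper part (12 of 14 were lower than both).
Group means were 0.585 ± 0.0060 (SD, n = 2) for #1, 0.654 ± 0.0058 (SD, n = 2) for #2 and 0.607 ± 0.040 (SD, n = 14) for full-length. Relative insulation, the ratio to full-length, was 0.963 for #1 (exact permutation p = 0.383, adjusted p = 0.575) and 1.08 for #2 (exact permutation p = 0.200, adjusted p = 0.575), and 1.02 for both lines together (exact permutation p = 0.576, adjusted p = 0.576; two-sided tests, Benjamini-Hochberg adjustment over 3 comparisons). With 2 libraries against 14, the smallest possible p is 0.0167, which becomes 0.05 after adjustment over 3 comparisons, so 1 line on its own could not fall under the threshold. The shifts that these tests did not refuse at 0.05 ran from -0.119 to 0.037 for #1 and from -0.049 to 0.107 for #2. Within the run of library numbers (2 full-length libraries, 0.618 ± 0.0092, SD, n = 2), the ratios were 0.946 and 1.06 (adjusted p = 0.50 for each, exact permutation tests; the smallest possible p is 0.333 for 2 against 2).

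The lines with the same C-terminal deletion and no substitution gave context for each mutant. The 3 libraries with Del_576-614 alone scored 0.458, 0.594 and 0.565, and both #1 libraries lay between the higher pair of these values. The lowest is labelled with the other deletion and was grouped by its cell line. The labels of chromatin immunoprecipitation (ChIP-seq) samples from line EN142.1 in this series also name Del_615-736. The labels thus disagree on the deletion that this line carries. The single library with Del_615-736 alone scored 0.555, below both #2 libraries. By limma with a spread shared across all groups, none of 193 bins differed between #1 and the Del_576-614 line at an adjusted p under 0.05 (7 at an unadjusted p under 0.05), which does not show that the lines act alike. The 0 bins called between #2 and the Del_615-736 library (8 unadjusted) rest on 1 library that is assumed to vary like the other groups, so no likeness can be read from them.

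**Figure D1:**
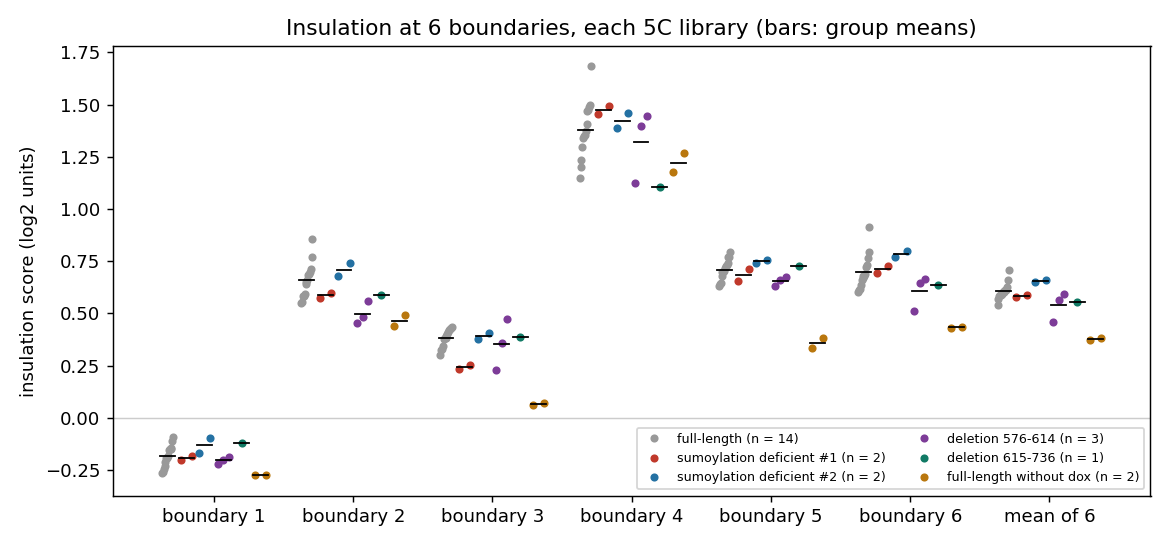
Insulation score in log2 units (vertical axis) at boundaries 1 to 6 and averaged over them (horizontal axis), with 1 point per 5C library, a bar at each group mean, and colours for full-length, both sumoylation-deficient lines, the lines with the C-terminal deletions alone and full-length without dox. At boundary 3 both libraries of #1 sit at 0.235 and 0.251, below all 14 full-length libraries, and elsewhere the mutant points fall among the grey ones.

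Read boundary by boundary, only boundary 3 in #1 gave values outside the full-length range. In #1 its insulation score was 0.235 and 0.251, against 0.30 to 0.437 in full-length (median 0.388), so that both #1 libraries lay below all 14 full-length libraries. The libraries of #2 scored 0.406 and 0.376 and lay among the full-length ones, while those without dox scored 0.073 and 0.061. Over all 193 bins, both #1 libraries lay below every full-length library in 6 bins (3.11%) and above every one in 7 (3.63%), and both #2 libraries lay below in 3 (1.55%) and above in 1 (0.518%). Boundary 3 is thus 1 of the 6 low bins of #1. The low bins of #2 included 2 adjacent ones at Rlim, where the scores of #2 were 0.251 and 0.280 in the bin within the gene, against at least 0.289 in full-length. Without dox the mean score of this bin was 0.681, so the low values of #2 lay on the other side of full-length from those after CTCF depletion. The difference between #2 and #1 there was -0.11 (adjusted p = 0.610, limma), with an adjusted p of 0.036 with the run of library numbers as a block.
At boundary 3, #1 differed from full-length by -0.14 ± 0.040 (SE), which missed the threshold (adjusted p = 0.094, limma over 193 bins). For #2 the difference was 0.0087 ± 0.040 (SE; adjusted p = 0.961, limma), with a 95% interval from -0.074 to 0.092. The difference between #2 and #1 at this boundary was 0.15 ± 0.053 (SE; p = 0.010 unadjusted, adjusted p = 0.491, limma). Among 22 alternatives, the #1 difference missed the threshold in 20. It passed when the fit held only both mutants and full-length (adjusted p = 0.028, limma). It also passed without the full-length library with the highest boundary 2 score, 0.855 (adjusted p = 0.046, limma).
The libraries with Del_576-614 alone scored 0.227, 0.471 and 0.360 at boundary 3. Their spread covers the values of #1, and the lowest is again the library labelled with the other deletion.

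At the other boundaries no difference from full-length passed the test in either mutant (adjusted p of at least 0.578 for #1 and at least 0.786 for #2, limma). At boundary 4, the strongest boundary, which holds the 5′ part of Xist, #1 scored 1.49 and 1.46 and #2 scored 1.39 and 1.46, against 1.15 to 1.68 in full-length (median 1.36). At boundary 5, near Rlim, which encodes a ubiquitin ligase that activates Xist, the scores were 0.715 and 0.655 in #1 and 0.757 and 0.743 in #2, against 0.629 to 0.794 in full-length (median 0.709). The mutants thus lay inside the full-length range at both, whereas the libraries without dox lay far below it at boundary 5, at 0.335 and 0.382. At boundary 6, next to the copper transporter gene Atp7a, #1 scored 0.696 and 0.729 and #2 scored 0.770 and 0.797, against 0.602 to 0.914 in full-length (median 0.677). Only 1 full-length library was higher than both #2 libraries there. At boundary 2 the scores were 0.598 and 0.576 in #1 and 0.677 and 0.740 in #2 (full-length 0.550 to 0.855, median 0.657). At boundary 1 they were -0.200 and -0.183 in #1 and -0.097 and -0.167 in #2 (full-length -0.265 to -0.093, median -0.188), so this bin had more contacts across it than the average bin in every group.
The 95% intervals of the #1 difference at boundaries 1, 2, 4, 5 and 6 ran from -0.181 at the lowest to 0.276 at the highest, and those of #2 from -0.138 to 0.225. The widest in both mutants was boundary 4, where depletion of CTCF itself (no dox) changed the score by -0.16 with an adjusted p of 0.155 (limma).

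Across the whole profile, #1 differed from full-length in 3 of 193 bins (1.55%; limma, adjusted p under 0.05), with 23 at an unadjusted p under 0.05. In #2 no bin passed (limma, adjusted p under 0.05) and 10 had an unadjusted p under 0.05, and between #2 and #1 no bin passed and 11 had an unadjusted p under 0.05. Depletion of CTCF, measured the same way, changed 67 of the 193 bins (34.7%). The 3 bins called in #1 lie in 2 places, directly upstream of boundary 3 and in Atrx.

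**Figure D2:**
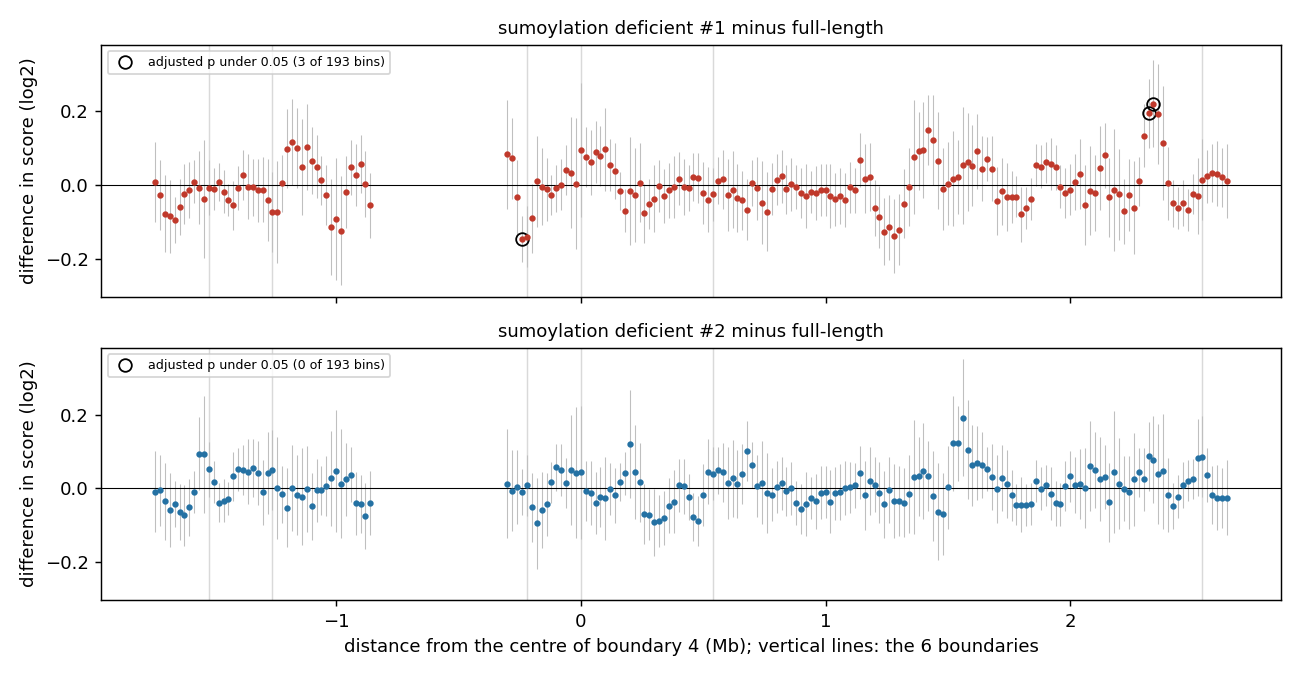
Difference in insulation score from full-length in log2 units (vertical axis) for sumoylation deficient #1 (upper panel) and #2 (lower panel) in each of 193 bins of 20 kb, against the distance from boundary 4 in Mb, with 95% limma intervals as grey lines and the 6 boundaries as vertical lines. Circles mark the bins with an adjusted p under 0.05, which are 3 in #1, next to boundary 3 and in Atrx, and 0 in #2.

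The first of these places is the 20-kb bin before boundary 3 (chrX:100431148-100451147), inside 4930519F16Rik. The insulation scores of #1 were 0.151 and 0.153, those of #2 were both 0.288, and full-length ranged from 0.209 to 0.349 with a median of 0.302. Both #1 values were thus lower than in any of the 14 full-length libraries and higher than in the libraries without dox, at -0.035 and -0.040.
The difference between #1 and full-length was -0.15 ± 0.030 (SE; adjusted p = 0.0099, limma over 193 bins), or 1.11-fold more contacts across the bin (95% interval 1.06 to 1.15). Within the run of consecutive library numbers it was -0.14 ± 0.030 (SE; adjusted p = 0.0065, limma). The difference of #2 was -0.0099 with a 95% interval from -0.071 to 0.052 (limma), and that between #2 and #1 was 0.14 ± 0.039 (SE; adjusted p = 0.380, limma), or an adjusted p of 0.022 with the run as a block. With a 200-kb window the #1 difference was -0.11 (adjusted p = 0.059, limma), and with either #1 library left out it stayed at -0.15 but no longer passed (adjusted p = 0.407 without replicate 1 and 0.374 without replicate 2, limma). Scores in the libraries with Del_576-614 alone were 0.193, 0.298 and 0.273, and in the parylation-deficient libraries 0.260 and 0.234, so all of these were above both #1 libraries. The next bin upstream, also in 4930519F16Rik, had mean scores of 0.205 in #1 and 0.238 in full-length (difference -0.032, adjusted p = 0.873, limma).

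The second place is the 3′ part of Atrx, which encodes a chromatin remodeller that deposits a histone H3 variant with DAXX. Atrx lies on the minus strand (chrX:102992954-103124736), and both called bins are in its 3′ part (chrX:102991148-103031147). In the second of them, the insulation scores of #1 were 0.737 and 0.729, those of #2 were 0.596 and 0.582, and full-length ranged from 0.349 to 0.689 with a median of 0.507. The #1 libraries lay above every full-length library, the #2 libraries inside the full-length range, and the libraries without dox at 0.538 and 0.619. In the first called bin #1 scored 0.804 and 0.791, and the libraries without dox 0.725 and 0.753 (full-length highest 0.730). In the bin before Atrx, #1 scored 0.779 and 0.816 and the libraries without dox 0.781 and 0.772. Both groups lay above every full-length library there (highest 0.737), so high scores at this place were not particular to #1.
The difference between #1 and full-length was 0.22 ± 0.057 (SE; adjusted p = 0.046, limma) in the second called bin and 0.19 ± 0.045 (SE; adjusted p = 0.023, limma) in the first. Within the run of consecutive library numbers it was 0.16 ± 0.034 and 0.19 ± 0.037 (SE; adjusted p = 0.0065 for both, limma). The call in the second bin lost the threshold in 14 of 22 alternatives, among them 9 that leave out a single full-length library, with adjusted p between 0.052 and 0.067 for those 9 (limma), and both that leave out a #1 library. In #2 the differences were 0.077 and 0.087, with adjusted p of 0.812 and 0.786 (limma), and the differences between #2 and #1 were -0.14 and -0.11, with an adjusted p of 0.664 for both (limma). With the run of library numbers as a block, the first of these passed (adjusted p = 0.028, limma) and the second did not. With Del_576-614 alone the second bin scored 0.521, 0.653 and 0.688, and 1 full-length library was at 0.689, so the gap below #1 was small. With runs of library numbers as blocks, 16 bins passed in #1 in place of 3 and 7 between #2 and #1 in place of 0, while #2 against full-length stayed at 0 (limma).

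**Figure D3:**
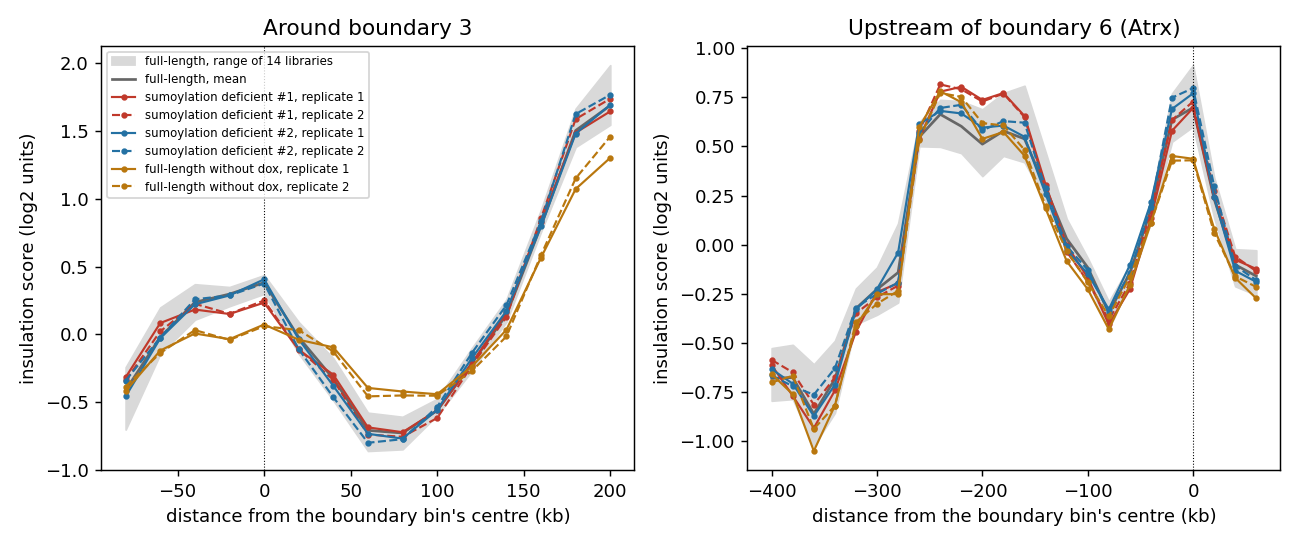
Insulation score in log2 units (vertical axis) against the distance from boundary 3 (left) and from boundary 6 (right) in kb, with the full-length mean and range in grey, and 1 line per library for sumoylation deficient #1, #2 and full-length without dox. On the left #1 lies below the grey band at 0 and 20 kb upstream, between full-length and no dox, and on the right it lies above the band from 200 to 240 kb upstream, where Atrx begins in chromosome order. Both libraries without dox also lie above the band at 240 kb upstream.

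To see whether CTCF binding in the full-length line marks these places, peaks of transgenic FLAG-tagged CTCF were located (full-length line, auxin and dox for 2 days, mm9, 78 peaks of 200 bases in the region). Boundary 3 held 1 peak and the bins on either side none, which makes it the boundary bin with a single isolated peak, in an intron of 4930519F16Rik. Boundaries 2, 4 and 6 held 3 peaks each, boundary 1 held 1 with further peaks in both neighbouring bins, and boundary 5 held none. Neither called Atrx bin held a peak, and the nearest on either side lie between genes before Fgf16 and in an intron of Atrx. The 3 sequences are shown because they are the bound sites closest to the bins where #1 differed. They are from the mm9 reference, plus strand, and capitals mark the core of the CTCF motif (CCA, any 2 bases, AG, any 2 bases, GGC), searched on both strands:
Boundary 3 peak, chrX:100455304-100455503: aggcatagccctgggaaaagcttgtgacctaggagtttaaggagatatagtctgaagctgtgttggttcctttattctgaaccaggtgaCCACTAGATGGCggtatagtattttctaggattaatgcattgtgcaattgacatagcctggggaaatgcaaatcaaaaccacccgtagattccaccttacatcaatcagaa
Peak before Atrx, chrX:102958246-102958445: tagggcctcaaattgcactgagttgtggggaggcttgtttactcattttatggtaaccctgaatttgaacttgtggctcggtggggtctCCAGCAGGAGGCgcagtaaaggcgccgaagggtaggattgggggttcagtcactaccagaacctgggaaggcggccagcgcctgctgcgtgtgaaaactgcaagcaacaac
Peak in Atrx, chrX:103116871-103117070: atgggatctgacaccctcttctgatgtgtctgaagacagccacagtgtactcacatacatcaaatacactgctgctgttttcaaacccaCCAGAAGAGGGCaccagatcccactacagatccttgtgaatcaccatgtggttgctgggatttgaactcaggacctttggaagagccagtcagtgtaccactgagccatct
All 3 cores are on the plus strand. The same core was present in 31 of the 78 peaks (39.7%), in 8 of the 11 peaks in boundary bins (72.7%) and in 320 of 23000 windows of 200 bases that tile the region (1.39%). FLAG peaks of the sumoylation-deficient lines were not analysed here.

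Few single contacts between bins passed the test. Of 7782 bin pairs 40 to 1000 kb apart, 1 differed between #1 and full-length (0.0129%; 504 at an unadjusted p under 0.05), 0 between #2 and full-length (244 unadjusted), and 2 between #2 and #1 (0.0257%; 316 unadjusted), by limma on log2 of observed over expected contact with a pseudocount of 0.1. Depletion of CTCF changed 252 pairs (3.24%). The median absolute difference from full-length was 0.148 for #1, 0.130 for #2 and 0.216 without dox. It was 0.179 between #2 and #1 and 0.222 between #2 and the single Del_615-736 library. The order of these medians is therefore not read as a scale of effect. With 2 libraries per mutant, few calls do not show that contacts stayed the same.
The pair that differed in #1 links the bin of Magee2, a gene of the MAGE family, to a bin 680 kb further along the chromosome. Observed over expected contact was 0.00 and 0.19 in #1, 1.38 and 2.65 in #2, and 0.76 to 2.96 in full-length. The #1 values were below all others, and the pair is read by only 2 primer pairs. The difference was -3.35 ± 0.41 (SE; adjusted p = 0.00037, limma, log2 scale with the pseudocount, which limits the size at a contact of 0). Within the run of library numbers it was -2.66 with an adjusted p of 0.584 (limma).
The second pair that differed between the mutants lies 740 kb apart (chrX:100331148-100351147 and chrX:101071148-101091147) and was read by 3 primer pairs. Its observed over expected contact was 0.67 and 0.49 in #1, 2.84 and 2.25 in #2, and 0.91 to 2.21 in full-length. It was lower than every full-length library in #1 and higher than every one in #2, and neither mutant alone passed against full-length.

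Contacts between bins that hold FLAG-CTCF peaks, 100 to 1000 kb apart, did not differ detectably from full-length in either mutant. Mean log2 of observed over expected contact over 344 bin pairs was 0.127 and 0.095 in #1, 0.108 and 0.111 in #2, and 0.014 to 0.126 in full-length (median 0.094). One library of #1 exceeded the highest full-length value slightly, and the other mutant libraries lay inside. The differences were 0.024 for #1 (exact permutation p = 0.267, adjusted p = 0.350) and 0.023 for #2 (exact permutation p = 0.350, adjusted p = 0.350). Both libraries without dox were higher than all of these, at 0.159 and 0.168.

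Contacts within the 7 segments that the boundaries delimit gave no call in either mutant (0 of 7 in each, exact permutation tests adjusted over 14 tests; 1 and 0 at an unadjusted p under 0.05), and a single test at 0.0167 could not pass this adjustment. In #1, 1 of the 7 segments (14.3%) lay outside the full-length range, and in #2 none did. This was segment 6, the 1980 kb between boundaries 5 and 6 with Magee1, Fgf16, Atrx and Magt1. Its log2 of observed over expected contact was 0.017 and 0.018 in #1, against 0.019 to 0.064 in full-length and 0.053 in both #2 libraries. The #1 values were just below the lowest full-length library (exact permutation p = 0.0167, adjusted p = 0.233), and the libraries without dox were lower still, at 0.013 and 0.014.
Segment 7, the 200 kb after boundary 6 with Tlr13, Pgk1 and Taf9b, showed similar values in both mutants. These were -0.278 and -0.229 in #1 and -0.268 and -0.244 in #2, against -0.274 to -0.085 in full-length (exact permutation p = 0.067 and 0.050, adjusted p = 0.233 for both). The 2 full-length libraries of the same run were at -0.274 and -0.206, and 3 of the 4 mutant values lay between them. In segment 3, the 1020 kb with Hdac8, Phka1 and Nap1l2, the means were 0.505 in #1, 0.496 in #2 and 0.428 in full-length (exact permutation p = 0.100 and adjusted p = 0.233 for both). In segment 1, the 320 kb with Ogt and Cxcr3, the values were 0.541 and 0.560 in #1 and 0.543 and 0.509 in #2, against 0.447 to 0.555 in full-length (exact permutation p = 0.050 and 0.267, adjusted p = 0.233 and 0.467). Segments 2, 4 and 5 had adjusted p of at least 0.560 in both mutants.

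None of the 15 contacts between pairs of boundaries passed the test in either mutant (exact permutation tests adjusted over 30 tests; 2 in #1 and 0 in #2 at an unadjusted p under 0.05). A single pair at the smallest possible p has an adjusted p of 0.50 and could not pass. The largest differences in #1 were a higher value for boundaries 4 and 6 and lower values for 2 and 6 and for 3 and 5. Log2 of observed over expected contact between boundaries 4 and 6, which joins Xist to the Cox7b and Atp7a boundary, was 0.060 and 0.231 in #1, -0.354 and -0.186 in #2 and -0.860 to -0.029 in full-length. Both #1 libraries were above all 14 full-length libraries (1 of 15 pairs, 6.67%; exact permutation p = 0.0167, adjusted p = 0.50), and so was the library with Del_615-736 alone, at 0.121. The libraries with Del_576-614 alone, the deletion named for #1, were at -0.210, -0.620 and -0.215, inside the full-length range. Without dox the values were -0.125 and 0.003, and the higher of these was also above all full-length libraries. Boundaries 3 and 5 had -1.113 and -0.886 in #1, against -0.984 to -0.395 in full-length (exact permutation p = 0.033, adjusted p = 0.50). Boundaries 2 and 6 had -0.754 and -0.538 in #1 within a full-length range of -0.891 to 1.004 (exact permutation p = 0.167, adjusted p = 0.833).
In #2 the largest differences were lower values for boundaries 1 and 5 (-1.335 and -0.890, against -1.088 to -0.252 in full-length) and for 2 and 5 (mean 0.129 against 0.468), and a higher value for 1 and 6 (mean 0.066 against -0.162). Of these, the first had an exact permutation p of 0.067 and an adjusted p of 0.667, and the others had adjusted p of 0.923 and 0.932 (exact permutation tests).

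**Figure D4:**
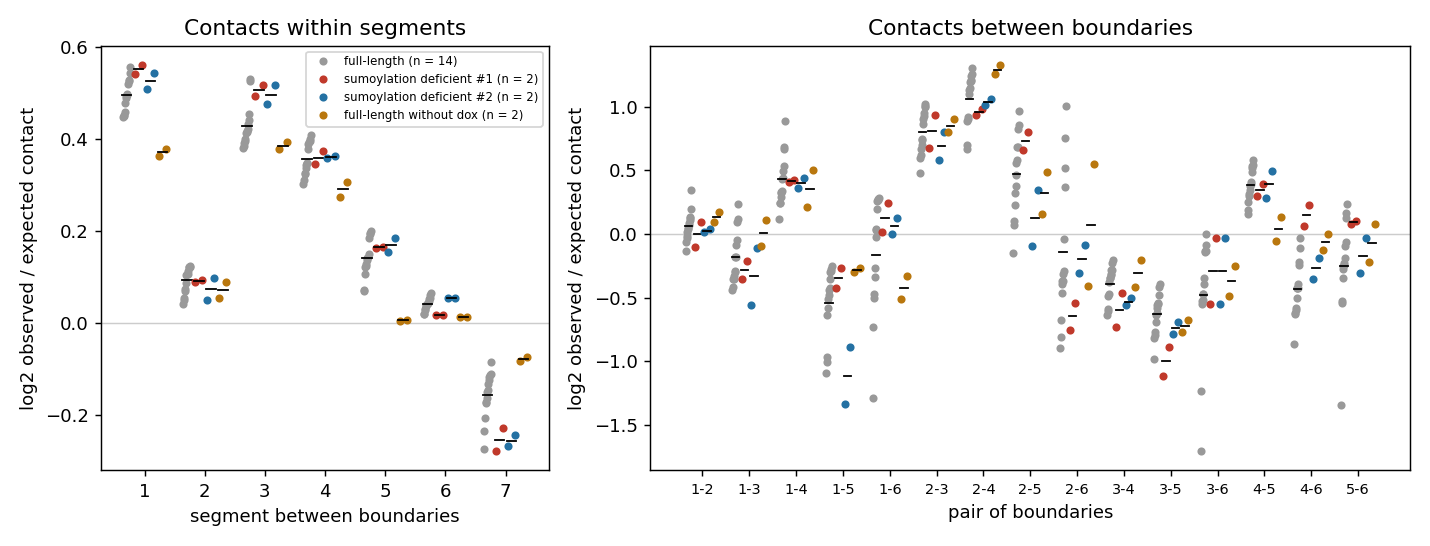
Log2 of observed over expected contact (vertical axis) within the 7 segments between boundaries (left) and between the 15 pairs of boundaries (right), with 1 point per 5C library and a bar at each group mean for full-length, sumoylation deficient #1, #2 and full-length without dox. The 2 #1 points at 0.060 and 0.231 for boundaries 4-6 and those at 0.017 and 0.018 for segment 6 fall outside the grey full-length points, and no difference passed the test after adjustment.

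The share of contacts by distance gave no call. Contacts 100 to 300 kb apart made up 30.2% and 30.6% of all contacts over 40 kb in #1, 31.3% in both #2 libraries and 27.8% to 31.8% in full-length. Contacts over 1000 kb apart made up 15.8% and 16.0% in #1, 14.3% and 14.4% in #2 and 13.1% to 20.8% in full-length. This held for all 5 classes of distance (0 of 5 called in each; adjusted p of at least 0.870, exact permutation tests), and all mutant libraries lay inside the full-length ranges in these classes.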

How the data were processed

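Groups were taken from the cell line and treatment in the labels. The authors mapped reads to primer pairs in mm9 and deposited raw counts for each pair of forward and reverse primers, and a signal matrix in which the authors corrected these counts iteratively at the fragment level and left out poorly covered primers. Per the labels' processing notes, Bowtie2 and SAMtools were used. Totals of the 17 complete count files ranged from 5262254 to 23096139 (median 12412481). In 24 of the 26 libraries the corrected matrix is symmetric. The authors' list of FLAG-CTCF peaks gives coordinates without a score.

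Here, primers with only zeros were treated as missing, the corrected values of all primer pairs in a 20-kb bin pair were averaged, and bin pairs on the first 2 diagonals received the mean of the diagonal beside the main one. Squares of 5 by 5 bins with at least 50% of bin pairs measured were scored. Expected contacts are the mean at each distance in a library. Contacts of peak bins at 0 (0.794% of values) were left out of means of logarithms. Exact permutation tests, two-sided (scipy 1.17.1), were used for single values, and limma 3.58.1 for profiles and bin pairs over 26 libraries in 7 groups, with Benjamini-Hochberg adjustment and a call at 0.05. Intervals of mean insulation are the shifts that the permutation test does not refuse. The scripts were tested on simulated data. Named bins were the called bin with the largest difference in each of the 3 longest runs of called bins per direction. Named bin pairs were the 3 called pairs with the largest difference per direction, and named boundary pairs were those called or else the 3 largest differences per line. The first of the 2 bins in Atrx, the bin further upstream of boundary 3 and the #2 bins at Rlim were added after their values were seen. So were the bin before Atrx and the bins directly upstream of boundaries 1, 2, 4 and 5. Members and tests were chosen with earlier results of these data known. No 2 mutant count files shared more than 2.15% of equal nonzero counts. Alternatives changed the window, binning, scaling, boundary set, pseudocount, distances, libraries and blocks.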

Additional observations from a re-analysis of the deposited data

Results flagged for a closer look

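Sumoylation deficient #1 and #2 differed from each other in 2 bin pairs (limma, adjusted over 7782 bin pairs). The contact between the Magee2 bin and the bin 680 kb further along the chromosome was higher in #2 than in #1 by 3.58 ± 0.54 on the log2 scale (SE; adjusted p = 0.010, limma), a size set in part by the pseudocount of 0.1, since 1 library of #1 had a contact of 0. In the second, the contact between the bins starting at chrX positions 100331148 and 101071148 was higher by 1.96 ± 0.33 (SE; adjusted p = 0.023, limma). They are read by 2 and 3 primer pairs. With the run of library numbers as a block, the first kept an adjusted p of 0.028 and the second had 0.366 (limma). Neither was called with a pseudocount of 0.5 or with the replicate block, and at most 1 bin pair was called between the mutants with 1 of their libraries left out.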

How the results depend on the processing

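Mean insulation of 1 line on its own could not fall under the threshold after adjustment, so its directions are given and no stability is read from its p-values. The ratio of #1 to full-length reversed with medians over primer pairs (1.00), with the 4 strongest boundaries (1.00) and with the replicate block (1.03), and that of both lines together reversed with log2 of contacts within over across (0.992), against the 5 full-length libraries with the nearest library numbers (0.986) and with 1 library left out (0.999 to 1.04). The #2 ratio stayed above 1 in all 25 alternatives (1.01 to 1.16). Deviations of same-numbered libraries correlated at -0.204 and -0.068 for #1 and 0.186 and -0.127 for #2 against full-length, and at 0.178 for both numbers between #1 and #2. With 2 libraries a group the deviations mirror each other, so these values cannot settle whether the numbers pair samples, and no pairing was used. The replicate block gave 4 bins called in #1 and 0 in #2. Both mutants carry only replicate numbers 1 and 2. The full-length libraries so numbered had mean insulation of 0.542 and 0.588 and lie outside the run of the mutants. The first is the lowest of all 14, so no conclusion is drawn from the reversal with this block. Scores from raw counts could not be computed beyond boundary 1, where, added after seeing the data, #2 minus full-length was -0.0076 with raw counts.

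Bins called in #1 were 1 with medians, 16 with the run block and 0 to 5 with 1 library left out (0 without either #1 library, 5 without the full-length library that scored 0.855 at boundary 2), and 7 between #2 and #1 with the run block. Boundaries called in #1 were 1 with the fit over both lines and full-length only, and 0 to 1 with 1 library left out. Differences that reversed were boundary 4 with the run block (-0.0037 in #1, -0.055 in #2), boundary 3 in #2 with the replicate block (-0.0056), and, with 1 library left out, boundaries 1 (-0.016 to 0.0010), 5 (-0.055 to 0.0048) and 6 (-0.0018 to 0.0315) in #1 and 3 (-0.0067 to 0.024) in #2. Bin pairs called in #1 were 3 with a pseudocount of 0.01, 3 up to 2000 kb, 3 with medians, 0 with the run block, 0 with the replicate block and 0 to 2 with 1 library left out. In #2 they were 2 with a pseudocount of 0.01 and 0 to 1 with 1 library left out. Between #2 and #1 they were 0 with a pseudocount of 0.5, 4 up to 2000 kb, 1 with the run block, 0 with the replicate block, 1 with the fit over both lines and full-length only and 0 to 1 with 1 library left out. Against Del_576-614 alone, #1 gave 1 with a pseudocount of 0.01, 4 up to 2000 kb, 2 in bin pairs above the median of mean contact, 1 with medians and 0 to 2 with 1 library left out. Contacts of peak bins reversed in #2 with medians (-0.0048), a peak within 1 bin (-0.0016) and 200 to 600 kb (-0.022). The cause of these changes was not tested. With 2 libraries per mutant, single bin pairs are limited by few primer pairs.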
